A study of Mus musculus with 12 samples.

Results

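The poly(A) RNA of 2 Skp1acont libraries was compared with that of 4 wt libraries, all labelled as mouse embryo at 9.5 days post coitum (dpc). The members were chosen by their titles alone: Skp1acont lot 1 and Skp1acont PI lot 1 on one side, and wt lot 1, wt lot 2, wt PI lot 1 and wt PI lot 2 on the other, 6 of the 12 labelled samples and of the 11 libraries with counts. Skp1acont lot 2 was left out, and Skp1acont PI lot 2 was not analysed here. The labels give no strain, allele, driver or treatment for any group and leave the terms "cont", "PI" and "lot" and the "mb" in the titles unexplained. They are used as written, so whether the Skp1acont embryos carry an altered Skp1a allele is not known from them. Tissue and source are given as embryo for all 6, while the growth protocol and series text speak of ES cells and embryoid bodies. Nothing in the labels says that the libraries came from separate embryos, so the p-values measure only how far these libraries spread, and that spread may be technical. The comparison addresses how far the libraries labelled as control for Skp1a stand from wild type, with both PI states in 1 fit and PI kept as a covariate.

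Skp1a encodes SKP1, the adaptor that joins the scaffold CUL1 to an F-box protein in SCF ubiquitin ligases, and the F-box protein picks the substrate that is marked for the proteasome. The cullin works only once NEDD8 has been attached to it, and the COP9 signalosome takes NEDD8 off again. PRC2, built on EZH2, EED and SUZ12, methylates lysine 27 of histone H3 and keeps genes of other lineages silent in the embryo, and PRC1 ubiquitinates histone H2A at such genes. The series concerns SKP1A and the degradation of PRC2.

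Total counts were 4203553 for Skp1acont and 4128267 for Skp1acont PI, and ran from 3392251 to 11190592 in the wt libraries, lot 2 being the deeper of each wt pair. A count of 0 allows up to 0.573 and 0.607 CPM (counts scaled by library size to a common total) in the Skp1acont libraries and from 0.288 to 1.01 CPM in the wt ones, taking 3 counts as the limit. The make-up of the counts differed between the groups, with no overlap. Mitochondrial genes took 6.64% ± 0.935 (SD, n = 2) of the Skp1acont counts and 3.31% ± 0.620 (n = 4) of the wt counts, and cytosolic ribosomal protein genes took 9.27% ± 0.0909 and 13.5% ± 0.893. The background rate, read from 1800 odorant, pheromone and taste receptor genes, which have no known use in an embryo this young, was 3.35 and 3.65 times that of the lowest library of the series in Skp1acont and 1.10 to 1.44 times in wt. For each of these 3 measures the exact permutation test gave p = 0.0667, the smallest that 2 against 4 libraries allow. On the log2 CPM scale the 2 Skp1acont libraries correlated with r = 0.967 across genes, wt pairs with 0.937 to 0.975, and pairs of a Skp1acont and a wt library with 0.849 to 0.897. Marker genes were read beside the labelled tissue. Neural progenitor genes summed to 5866 to 8016 CPM over the 6 libraries and red cell genes to 3508 to 21689. The heart factor Nkx2-5 had no count in any, and Hox genes of the hindbrain and trunk stayed low, as given below. The markers thus do not bear out a whole embryo, and the labels name no part of it.

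Of 13444 genes tested with edgeR's quasi-likelihood test, 7278 (54.1%) were called at an adjusted p under 0.05, 3627 (27%) higher and 3651 (27.2%) lower in Skp1acont. Changes of more than 2-fold were found for 2483 of the higher and 1821 of the lower genes. In 8714 genes (64.8%; 33.4% above and 31.4% below) both Skp1acont libraries lay on one side of all 4 wt libraries. The balance of directions depended on the scaling: with trimmed-mean (TMM) scaling the log2 fold changes had a median of 0.04 and 49.8% of the called genes were higher, and with library totals it was 0.49, a shift of 0.45, and 76.0% of 7725 called genes (57.5%) were higher (43.7% of all genes higher and 13.8% lower). All CPM values and fold changes below are TMM-scaled unless totals are named. Within lot 1 alone, with 2 libraries on each side, 3868 of 13176 genes (29.4%) were called, 1969 (14.9%) higher and 1899 (14.4%) lower, and 3735 genes were called both there and with all 6 libraries.

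Skp1a itself was lower. Skp1a (ENSMUSG00000036309.14, GRCm38 chromosome 11, 52231995 to 52246858, plus strand) had 305 CPM in Skp1acont and 283 in Skp1acont PI, against 852 and 1023 in wt and 1056 and 1126 in wt PI. The groups did not overlap, and the spread within each was small beside the gap. The log2 fold change was -1.78 ± 0.16 (SE, adjusted p = 0.000697), and it was -1.33 with library totals (adjusted p = 0.00168). Within lot 1 it was -1.66 (adjusted p = 0.0025). The table counts the gene as a whole and does not show whether a part of it was missing from the transcripts.

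Most genes of the SCF core and of the NEDD8 cycle were lower too: of 18 tested, 12 were lower and 2 higher, with a median log2 fold change of -0.94. By level 15 of the 18 lay in the highest of 5 groups, described below, where 61.2% of all genes were lower. Nae1, a subunit of the NEDD8-activating enzyme, had 61.7 and 54.2 CPM in the Skp1acont libraries and 198, 221, 239 and 254 in wt (-1.97 ± 0.16, adjusted p = 0.0006). Uba3, its catalytic partner, had 41.3 and 26.7 CPM against 132, 123, 131 and 145 (-1.98 ± 0.20, adjusted p = 0.000884). Cops2, a COP9 signalosome subunit, had 121 and 116 CPM against 316, 341, 361 and 373 (-1.55 ± 0.13, adjusted p = 0.000626). In all 3 both Skp1acont libraries lay far below every wt library, and the wt values lay close together. Rbx1, the RING subunit that binds the E2 enzyme, had 455 and 339 CPM against 842, 942, 890 and 788 (-1.14 ± 0.15). Cul1, the scaffold, had 106 and 105 CPM against 167, 178, 205 and 204 (-0.83 ± 0.13, adjusted p = 0.00275), but library totals left it short of the threshold (-0.38, adjusted p = 0.0596). The 2 members that rose were Ube2m, the E2 enzyme of NEDD8, with 58.3 and 61.7 CPM against 7.73 to 21.5 in wt (2.05 ± 0.24, adjusted p = 0.00123), and Cops7b (0.66 ± 0.23, adjusted p = 0.0461). With library totals 9 of the 18 were lower and 2 higher, with a median of -0.49.

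F-box genes, the substrate receptors, changed less evenly. Of 29 tested, 11 were lower and 2 higher (median -0.25), and with library totals 7 were lower and 8 higher (median 0.19), so the balance of the family turned with the scaling. The TMM shares, 37.9% lower and 6.9% higher, stood beside 27.2% and 27% over all genes. All 11 lower members had a negative fold change with library totals too, and 7 of them were still called. Fbxo11 had 51.8 and 42.3 CPM against 136, 158, 97.5 and 110 (-1.40 ± 0.14), and Fbxl5, the receptor that follows cell iron, had 34.2 and 31.8 CPM against 76, 82.8, 78.1 and 83 (-1.28 ± 0.13). Fbxo30 (-1.20 ± 0.13) and Fbxo5 (-1.18 ± 0.13), the latter an inhibitor of the anaphase-promoting complex, were lower too, and adjusted p for these 4 ran from 0.000843 to 0.00103. The 2 higher members were Fbxw8 (1.12 ± 0.14) and Fbxw5 (0.70 ± 0.18). Within lot 1 alone 7 of the list were called, 6 of them lower.

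**Figure D1:**
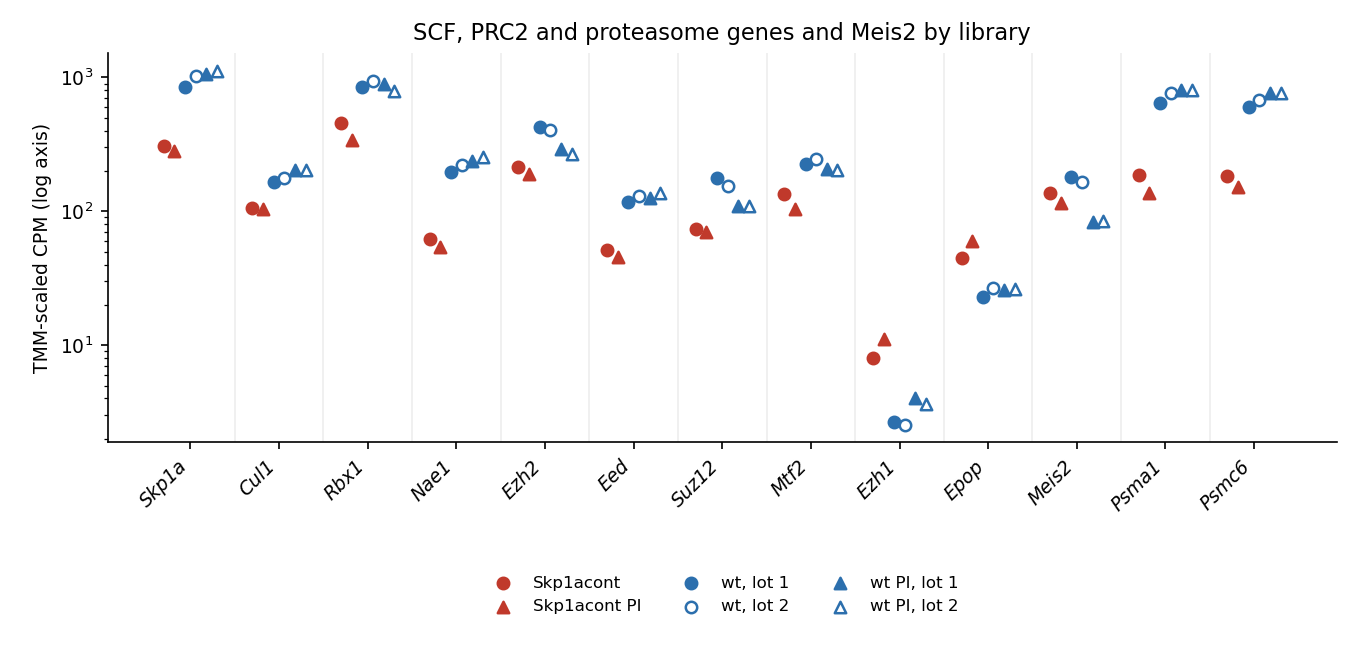
TMM-scaled CPM on a log axis for genes of the SCF ligase, PRC2 and the proteasome and for Meis2, 1 symbol per library (red Skp1acont, blue wt; circles without PI, triangles with PI; open symbols lot 2). The red symbols lie below all blue ones except for Ezh1 and Epop, where they lie above, and Meis2, where they lie between wt with and without PI.

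The PRC2 core was lower in Skp1acont at the RNA level. Eed, the H3K27me3 reader of the complex (chromosome 7, 89954654 to 89980983, ENSMUSG00000030619.9), had 51.8 and 45.9 CPM against 117, 129, 127 and 138, a log2 fold change of -1.38 ± 0.14 (adjusted p = 0.000843). Suz12, its scaffold (chromosome 11, 79993106 to 80034123, ENSMUSG00000017548.15), had 73.8 and 69.6 CPM against 178 and 154 in wt and 110 in each wt PI library (-0.90 ± 0.16, adjusted p = 0.00457). Ezh2, the methyltransferase (ENSMUSG00000029687.16, chromosome 6, 47530139 to 47595341), had 214 and 191 CPM against 425, 402, 293 and 267 (-0.75 ± 0.15, adjusted p = 0.00622). No Skp1acont value reached the lowest wt value for any of the 3, but the wt values of Ezh2 and Suz12 themselves differed by PI. With library totals Eed (-0.93, adjusted p = 0.00326) and Suz12 (-0.45, adjusted p = 0.0381) stayed past the threshold and Ezh2 did not (-0.30, adjusted p = 0.104), and Ezh2 also missed it within lot 1 (-0.77, adjusted p = 0.0841).

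Among all 11 tested PRC2 genes 7 were lower and 2 higher (median -0.75), and 5 and 3 with library totals (median -0.30). The highest of 5 groups by level, described below, held 8 of the 11, and 61.2% of all genes there were lower. Mtf2, which guides PRC2 to CpG islands, had 134 and 104 CPM against 227, 246, 208 and 205 (-0.90 ± 0.12, adjusted p = 0.00185). Aebp2, a cofactor of the same complex, was at -0.93 ± 0.13, and the histone-binding Rbbp7 and Rbbp4 at -1.37 ± 0.23 and -0.53 ± 0.12. The 2 that rose were Ezh1, the paralogue of Ezh2, with 8.03 and 11.1 CPM against 2.69, 2.56, 4.01 and 3.65 (1.58 ± 0.21, adjusted p = 0.00163), and Epop, with 44.7 and 59.7 CPM against 22.9, 26.9, 25.9 and 26.4 (1.02 ± 0.14, adjusted p = 0.00204). Jarid2, the remaining well-known cofactor, did not pass (-0.22 ± 0.12, adjusted p = 0.157). Both Ezh1 and Epop kept their direction with library totals and within lot 1.

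PRC1 genes split by member. Of 23 tested, 7 were higher and 5 lower, with a median of 0.00, against 11 higher and 3 lower with library totals. The TMM shares, 30.4% and 21.7%, stood beside 27% and 27.2% over all genes. Rnf2, which encodes the main ubiquitin ligase subunit RING1B, had 63.6 and 67.4 CPM against 184, 192, 185 and 202 (-1.54 ± 0.13, adjusted p = 0.0006). Bmi1 had 50.1 and 43.3 CPM against 193, 178, 110 and 102 (-1.59 ± 0.18), and Yaf2 43 and 48.4 CPM against 111, 114, 89.5 and 107 (-1.20 ± 0.15). In the other direction, Pcgf2, a paralogue of Bmi1, had 9.75 and 14.6 CPM against 5.04, 3.17, 3.7 and 4.22 (1.60 ± 0.25, adjusted p = 0.00292), and Ring1, the paralogue of Rnf2, 9.36 and 9.31 CPM against 5.72, 3.65, 3.39 and 2.98 (1.32 ± 0.26, adjusted p = 0.00678).

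Of 56 listed developmental regulators that PRC2 is known to hold silent, 33 passed the filter on low counts, and 11 of these were higher and 3 lower (median 0.36). Over all genes 27% were higher and 27.2% lower, so the higher share was near that of all genes and the lower share under it. With library totals 18 were higher and 2 lower (median 0.81). Pax8 had 24.5 and 38 CPM against 10.4, 8.16, 20.7 and 16.6 (1.23 ± 0.18, adjusted p = 0.00224), Otx1 had 22.2 and 26.5 CPM against 13.1, 11.1, 12.3 and 13.8 (0.95 ± 0.15, adjusted p = 0.00295), and Alx4 8.22 and 10.5 CPM against 2.02, 1.83, 1.23 and 3.46 (2.03 ± 0.34, adjusted p = 0.00355). Isl1, a regulator of motor neurons, went the other way, with 19.3 CPM in Skp1acont and 7.08 in Skp1acont PI against 39.3 and 45.6 in wt and 13.9 and 15.2 in wt PI (-1.10 ± 0.15, adjusted p = 0.00193). Its groups overlapped unless PI states were compared separately. The other members called lower were Zic1 (-1.09 ± 0.25) and Sall1 (-0.64 ± 0.15), and Sall1 missed the threshold with library totals (-0.19, adjusted p = 0.338). A gene that passed the filter only through counts in Skp1acont had to be higher, so this count, like that of every list below with members at low counts, describes only the members that passed, and 6 of the 11 higher ones lay in the lowest 2 of 5 groups of all genes by level, described below. With the background subtracted from the counts 8 of 28 were higher and 4 lower.

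Of 39 Hox genes, the best-known Polycomb targets, only Hoxb1 passed the filter, with 2.87 and 3.84 CPM against 1.34, 0.974, 1.23 and 0.768 (1.72 ± 0.39, adjusted p = 0.0101). It was not called within lot 1 (1.39, adjusted p = 0.124). The 39 genes together reached 18.3 and 20.2 CPM in the Skp1acont libraries and 3.17 to 5.55 in wt, and 5 of them had no count in either Skp1acont library. The background rate was higher in Skp1acont as well, and with the background subtracted no Hox gene passed the filter.

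Meis2, a homeobox gene of the developing midbrain that Polycomb complexes are known to control, was not called. Meis2 (ENSMUSG00000027210.20, chromosome 2, 115863064 to 116065839) had 138 CPM in Skp1acont, 115 in Skp1acont PI, 181 and 165 in wt and 83 and 84.1 in wt PI. Both Skp1acont values lay between those of wt and of wt PI, so the groups overlapped, and the log2 fold change was 0.09 ± 0.19 (adjusted p = 0.726). It was 0.53 (adjusted p = 0.0381) when scaled by library totals. It was called higher without the Skp1acont library that lacks PI (0.41, adjusted p = 0.0248) and lower without the Skp1acont PI library (-0.35, adjusted p = 0.0458). Without PI the difference was -0.32 and with PI 0.46, and the test of the difference between these states gave 0.79 ± 0.17 (adjusted p = 0.0456).

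Among proteasome genes 25 of 37 tested members were lower and 2 higher, with a median of -0.79. Over all genes 27.2% were lower. By level, however, 34 of the 37 lay in the highest of 5 groups, described below. In that group 61.2% of all genes were lower, with a median of -0.69. With library totals 14 were lower and 5 higher (median -0.33), and within lot 1 alone 13 were lower and 2 higher. Psma1, a subunit of the outer ring of the 20S core, had 187 and 136 CPM against 646, 764, 808 and 806 (-2.23 ± 0.20, adjusted p = 0.000693). Psmc6, an ATPase of the 19S cap, had 183 and 152 CPM against 605, 673, 762 and 763 (-2.06 ± 0.18, adjusted p = 0.000618). Psma2 had 261 and 233 CPM against 738, 861, 870 and 821 (-1.74 ± 0.15), and Psma6 238 and 234 CPM against 672, 786, 764 and 731 (-1.65 ± 0.14). In these 4 genes the gap between the groups was much wider than the spread within either. The 2 higher members were both of the 19S lid, Psmd3 with 98.4 and 108 CPM against 30.3, 27.3, 49.7 and 46.1 (1.48 ± 0.16, adjusted p = 0.000997) and Psmd13 with 71.3 and 84.4 CPM against 21.2, 32, 65.7 and 78.1, where the groups overlapped (0.84 ± 0.29, adjusted p = 0.0465).

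The sequences before the starts of Skp1a and of these 4 proteasome genes are shown. The 4 were chosen as the members of their list with the smallest p, and whether these genes share a control was not tested. They come from RefSeq on GRCm38.p6, read 5' to 3' on the gene's strand, and cover the part of the 150 bases before the first listed start that holds no annotated exon. Skp1a is shown from chr11:52231845-52231994 (plus strand), Psma6 from chr12:55384072-55384221 (plus), Psmc6 from chr14:45329674-45329787 (plus), Psma2 from chr13:14613166-14613239 (plus) and Psma1 from chr7:114276119-114276266 (minus). Capitals mark matches, on either strand, to any of 8 motifs that were searched: CCAAT of NF-Y, GGGCGG of SP1, TATAAA (the TATA box), CCGGAAG of the ETS family, CACGTG (the E box), TGACGTCA (the cyclic AMP response element) and the motifs of NRF1 and YY1. A base may belong to more than 1 match.
Skp1a: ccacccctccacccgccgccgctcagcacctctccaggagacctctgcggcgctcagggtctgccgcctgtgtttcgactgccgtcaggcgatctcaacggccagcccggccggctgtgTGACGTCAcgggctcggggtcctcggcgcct
Psma6: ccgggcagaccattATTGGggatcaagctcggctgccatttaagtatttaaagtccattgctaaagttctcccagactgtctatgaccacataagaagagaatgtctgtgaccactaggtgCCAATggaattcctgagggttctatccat
Psmc6: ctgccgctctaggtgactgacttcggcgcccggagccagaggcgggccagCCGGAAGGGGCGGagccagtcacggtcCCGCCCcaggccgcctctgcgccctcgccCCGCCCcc
Psma2: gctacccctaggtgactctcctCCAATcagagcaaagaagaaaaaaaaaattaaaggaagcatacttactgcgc
Psma1: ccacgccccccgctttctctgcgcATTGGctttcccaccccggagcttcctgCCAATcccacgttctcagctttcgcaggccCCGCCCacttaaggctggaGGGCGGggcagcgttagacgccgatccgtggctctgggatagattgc
The single match of Skp1a, TGACGTCA, begins 31 bases before the start and is held by 1.88% of 27025 RefSeq promoter windows of 300 bases. Psma6, Psma2 and Psma1 hold CCAAT, found in 37.9% of all windows, and Psmc6 holds CCGGAAG 100 bases before its start. No motif was shared by all 5. In the whole 300-base windows CCGGAAG was present in 14 (46.7%) of the 30 proteasome genes with an entry, in 9.12% of all promoters and in 17.7% of the 10262 tested genes with an entry (76.3% of those tested, under 80%, so the comparison with tested genes is void). Of these 14 genes 8 were lower and 1 higher (median -0.76), and of the 16 without it 13 were lower and 0 higher (median -0.88). A match is a run of letters and not a shown binding site. Over the called genes the search was void, because only 74.7% of the higher genes had an entry.

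Other gene groups of high level in every cell were also lower. Of 82 tested cytosolic ribosomal protein genes 66 were lower and 2 higher (median -0.98). All but 1 lay in the highest of 5 groups by level, described below, where 61.2% of all genes were lower. Rpl7 had 1203 and 1035 CPM against 3521, 4265, 3556 and 3315 (-1.71 ± 0.16, adjusted p = 0.000693). Rps7 (-1.70 ± 0.17) and Rpl24 (-1.22 ± 0.15) were close to them. With library totals 44 were lower and 6 higher (median -0.53), and within lot 1 alone 38 were lower and none higher.

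Nuclear genes of the respiratory chain and mitochondrial transcripts moved apart. Of 52 nuclear genes 38 were lower and 3 higher (median -0.80), and 24 and 4 with library totals. Here too 51 of the 52 lay in the highest group by level, where 61.2% of all genes were lower. Ndufb5 of complex I had 152 and 122 CPM against 469, 532, 400 and 368 (-1.68 ± 0.14, adjusted p = 0.0006), Cox5b of complex IV had 132 and 137 CPM against 446, 485, 373 and 359 (-1.62 ± 0.15, adjusted p = 0.00074), and Atp5c1 of the ATP synthase 288 and 245 CPM against 690, 807, 829 and 790 (-1.55 ± 0.16, adjusted p = 0.000853). The 3 higher members, Ndufv1 (0.74 ± 0.15), Atp5d (0.64 ± 0.13) and Cyc1 (0.40 ± 0.14), rose by less than these fell. Of the 13 genes of the mitochondrial genome 6 were higher and 0 lower (median 0.56), and 12 were higher with library totals. The complex I gene mt-Nd4 had 3695 CPM in Skp1acont and 4833 in Skp1acont PI, 2377 and 2329 in wt and 1667 and 1682 in wt PI (1.11 ± 0.21, adjusted p = 0.00515), and mt-Co1 of complex IV 4408 and 5511 CPM against 2770, 3354, 2409 and 2612 (0.84 ± 0.18, adjusted p = 0.00923). Within lot 1 alone 1 of the 13 was called.

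Cell cycle, splicing, translation and chaperone lists had more members lower than higher under TMM. Over all genes 27.2% were lower, and 61.2% in the highest of 5 groups by level, described below. Within that group 24 of 35 cell cycle genes and 23 of 35 splicing genes were lower. So were 18 of 34 translation factors, less often than all genes there, and 14 of 20 chaperones. With library totals splicing and chaperone genes were as often higher as lower, and the median of the translation factors was near 0 (0.02). Of 49 genes of replication and the cell cycle 28 were lower and 5 higher (12 and 9 with totals). Orc6, of the complex that marks replication origins, had 73 and 77.7 CPM against 233, 262, 308 and 318 (-1.88 ± 0.14), Ccne2, cyclin E2, 45.7 and 36.6 CPM against 168, 180, 193 and 203 (-2.17 ± 0.17), and Pcna, the sliding clamp, 431 and 420 CPM against 1099, 1053, 1023 and 1029 (-1.30 ± 0.13). The 5 that rose were Ccne1, Plk1, Ccnd1, Ccnd2 and Cdc25a, so the 2 E-type cyclins went in opposite directions: Ccne1 had 57.7 and 59.7 CPM against 24.5, 26.9, 48.8 and 42.4 (0.79 ± 0.19, adjusted p = 0.0146). Of 38 splicing genes 23 were lower and 5 higher (10 and 10 with totals), among them Srsf3 with 661 and 547 CPM against 1703, 1935, 1925 and 1883 (-1.63 ± 0.16) and Srsf7 with 517 and 429 CPM against 1308, 1468, 1509 and 1469 (-1.61 ± 0.16). Of 35 translation factors 18 were lower and 2 higher (10 and 7 with totals), with the initiation factor subunits Eif3m at -1.78 ± 0.15 and Eif3e at -1.62 ± 0.14, while Eif4g1 (1.06 ± 0.14) and Eef2 (0.98 ± 0.20) were the 2 that rose. Of 26 chaperone genes 15 were lower and 2 higher (5 and 5 with totals), with Cct4 of the cytosolic chaperonin at -1.72 ± 0.19 and Hspe1 of the mitochondrial one, at 981 CPM in each Skp1acont library against 2476 to 2830, at -1.45 ± 0.14. Hsf1 and Hsf2, which encode heat shock factors, were the 2 higher members. Lot 1 alone called 14 of the cell cycle genes, 9 of the splicing genes, 9 of the translation factors and 5 of the chaperones.

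**Figure D2:**
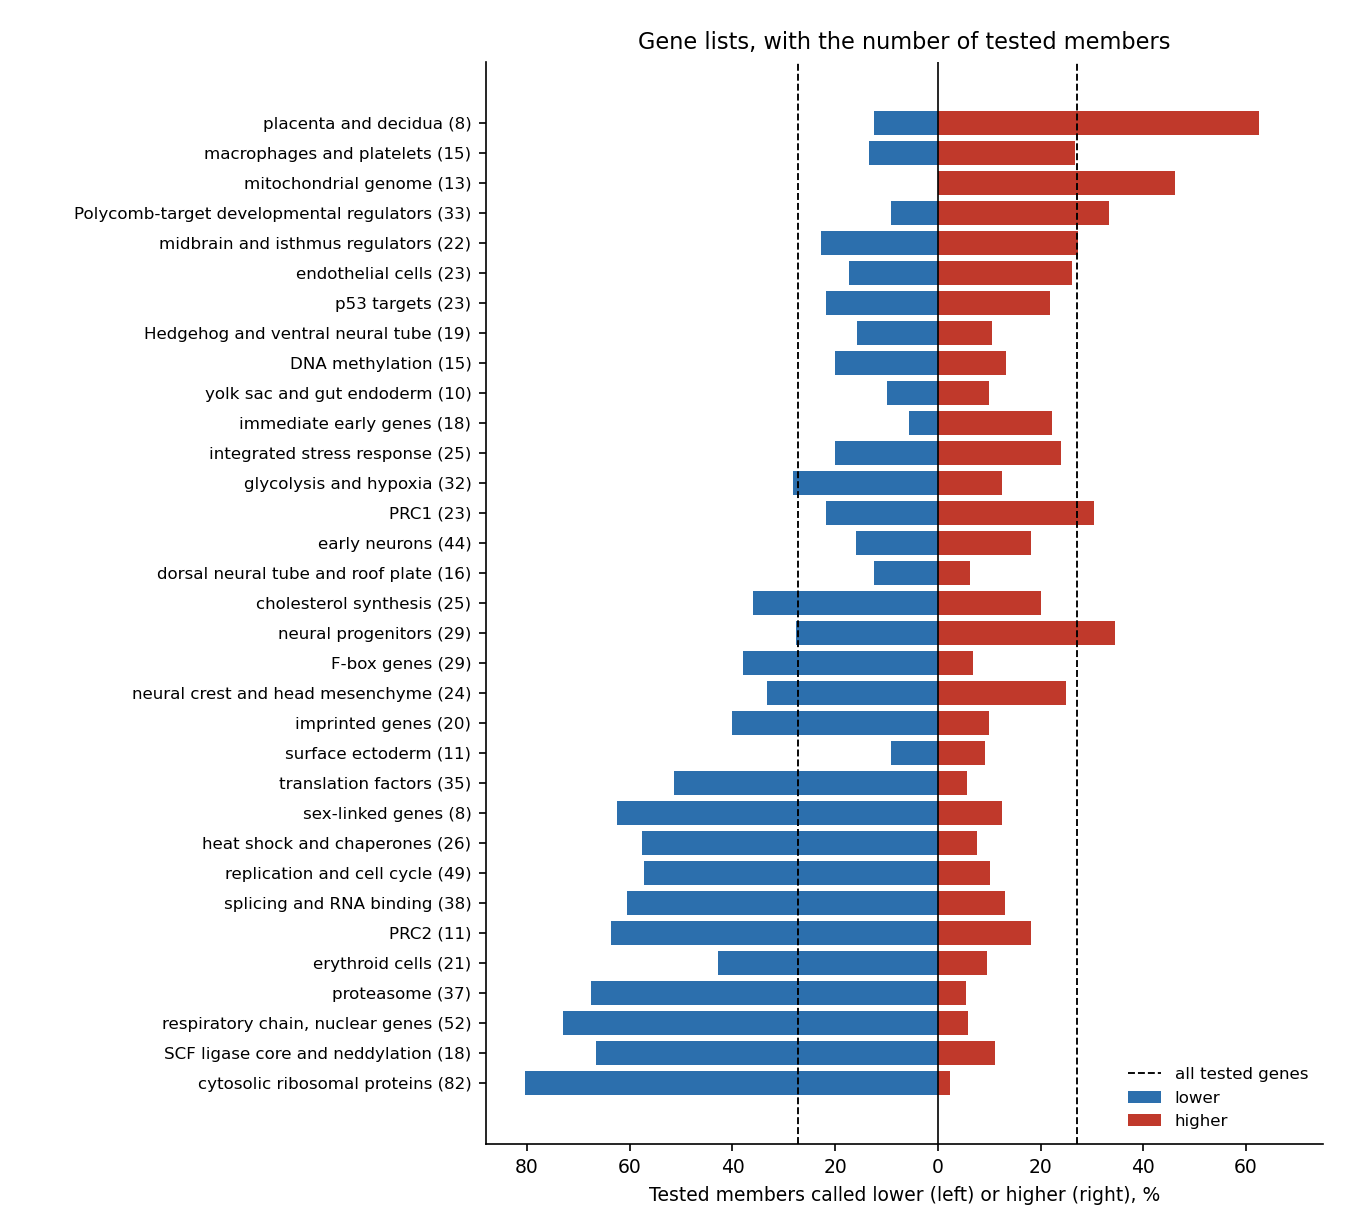
Share of the tested members of each gene list with at least 8 of them that was called lower (blue, to the left) or higher (red, to the right) in Skp1acont with TMM scaling, with the number of tested members in brackets. The dashed lines mark the shares over all 13444 tested genes, 27.2% lower and 27% higher, and the lists of highly expressed household genes extend far past the left line.

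These lists share a high level, and over all genes the direction of a call went with the level. The tested genes were split into 5 level groups of equal size by their mean CPM over the 6 libraries. These are the compared libraries, 4 of them wt, so level and direction are not independent measures. How much this adds to the relation was not tested. In the lowest group (0.736 to 4.42 CPM) 49.0% of genes were higher and 3.76% lower, and in the highest (63.4 to 23961 CPM) 7.25% were higher and 61.2% lower. The lowest group includes genes that passed the filter only through Skp1acont and so had to be higher, and how much of its 49.0% they make up was not tested. The middle value of the log2 fold changes fell from the lowest to the highest group, from 1.08 to 0.45, 0.07, -0.30 and -0.69. With library totals the order was the same, with 63.9% higher in the lowest group and 36.8% lower in the highest. Of the proteasome genes 34 of 37 lay in the highest group, as did 51 of 52 respiratory chain genes, 81 of 82 ribosomal protein genes, 15 of 18 SCF genes, 8 of 11 PRC2 genes, 35 of 49 cell cycle genes and 35 of 38 splicing genes. Of the 33 Polycomb targets 3 lay there and 16 in the 2 lowest groups. Within the highest group 12 of 15 SCF genes, 7 of 8 PRC2 genes and 24 of 34 proteasome genes were lower, beside the 61.2% of all genes there. The background rate, which adds counts to low genes in proportion, was also higher in Skp1acont, and its part in this relation was not tested. With the background subtracted from the counts 5889 of 11926 genes were called, 2916 higher and 2973 lower, and 17 proteasome, 11 SCF and 6 PRC2 genes were still lower.

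**Figure D3:**
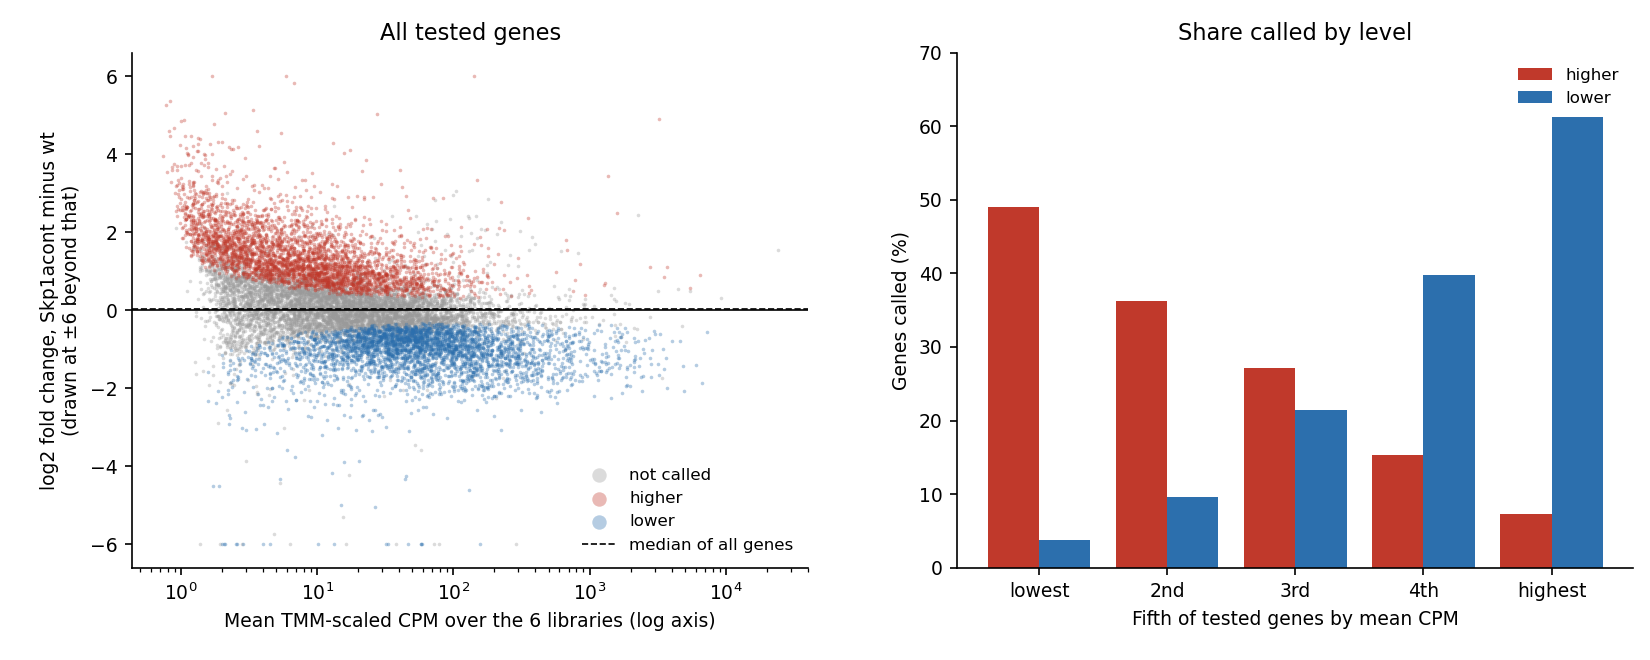
Left, log2 fold change of Skp1acont against wt for each tested gene against its mean TMM-scaled CPM on a log axis, drawn at ±6 where larger. Right, the percentage of genes called higher and lower in each of 5 groups by mean CPM: the higher share falls from 49.0% to 7.25% and the lower share climbs from 3.76% to 61.2%.

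Base composition went with the direction as well. Genes higher in Skp1acont had a median exonic GC content of 52.6%, lower ones of 44.5%, and all 13219 tested genes with a GENCODE M21 model of 48.5%. In the richest of 5 equal groups by GC content 51.4% were higher and 4.65% lower, and in the poorest 21.4% were higher and 46.6% lower. Across genes the rank correlation of GC content with the log2 fold change was 0.372, a description only, since genes are not independent replicates and share the 6 libraries. It was seen at a given level too: within the highest group by CPM 75.3% of the GC-poorer genes and 47.1% of the GC-richer genes were lower. The X chromosome, with a median GC content of 45.3%, had 14.7% of its 464 tested genes higher and 45.7% lower (median -0.56), and chromosome 7, at 50.6%, had 38.0% higher and 16% lower (median 0.43). Other chromosomes went against this order: the 13 genes of the mitochondrial genome, at 37.1%, had a median of 0.56 and 22 Y-linked genes, at 43.6%, one of 0.58, and chromosomes 11 (52.0%) and 15 (51.8%), richer in GC than chromosome 7, had medians of 0.18 and 0.20. The count-weighted GC content of whole libraries was 47.7% ± 0.163 in Skp1acont and 47.1% ± 0.255 in wt (exact permutation p = 0.0667, again the smallest possible). Its part in the gene results was not tested.

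Genes that pattern the midbrain and its boundary with the hindbrain, the isthmus, were found on both sides. Of 22 tested, 6 were higher and 5 lower (median 0.32), and 14 and 2 with library totals. The TMM shares, 27.3% and 22.7%, were near the 27% and 27.2% over all genes. Spry2, a feedback inhibitor of FGF signalling, had 153 and 202 CPM against 42.4, 40.4, 50.3 and 57.3 (1.90 ± 0.11, adjusted p = 0.000567), whereas Dusp6, a phosphatase of the same pathway, had 44 and 44.7 CPM against 68.6, 86.1, 103 and 101 (adjusted p = 0.00304), a drop that library totals made smaller (-0.55, adjusted p = 0.0324). These 2 FGF response genes thus moved in opposite directions, with no overlap between groups in either. Pax8, already given, and Pax2 (1.92 ± 0.37) and Pax5 (1.00 ± 0.23) were all higher, and the zinc finger gene Sp8 had 45.9 and 40.7 CPM against 74, 87.3, 134 and 132 (-1.24 ± 0.22, adjusted p = 0.00469).

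In the Hedgehog and ventral list 2 of 19 tested genes were higher and 3 lower, under the share over all genes in both directions, and in the dorsal list 1 of 16 was higher and 2 lower. Gas1, a co-receptor of Sonic hedgehog, had 58.9 and 41.7 CPM against 151, 141, 79.9 and 76.3 (-1.11 ± 0.14, adjusted p = 0.00162). Gli1, the target gene used as a readout of the pathway, had 3.82 and 8.9 CPM against 2.69, 1.71, 3.09 and 3.17 (1.24 ± 0.29, adjusted p = 0.0122). Gli1 was not called within lot 1 (1.09, adjusted p = 0.124), with the replicate number as a block (adjusted p = 0.0761) or without the Skp1acont PI library (0.86, adjusted p = 0.149). Zic5 had 54.3 and 60.7 CPM against 102, 109, 88.9 and 84.9 (-0.73 ± 0.15), and with library totals it missed the threshold (-0.28, adjusted p = 0.121). Within lot 1 alone 1 gene of each list was called.

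Neural progenitor and neuron markers showed no common direction. In RNA of mixed tissue fewer cells of a type and less RNA per cell cannot be told apart. Of 29 progenitor genes 10 were higher and 8 lower (median -0.16), and 13 and 2 with library totals, while lot 1 alone called 6. The TMM shares, 34.5% and 27.6%, stood beside 27% and 27.2% over all genes. Fabp7, a radial glia gene, had 179 CPM in Skp1acont and 96.1 in Skp1acont PI against 1018 and 945 in wt and 189 and 195 in wt PI (-1.67 ± 0.34, adjusted p = 0.00676), so the gap was wider without PI. Sox3 had 14.5 and 24.1 CPM against 9.08, 6.21, 8.33 and 7.01 (1.35 ± 0.24), and Lfng, which modifies Notch, 7.26 and 12.9 CPM against 2.02, 2.56, 3.39 and 2.69 (1.89 ± 0.25). Ptn, a secreted growth factor, had 416 and 342 CPM against 734, 870, 937 and 1008 (-1.22 ± 0.18). Of 44 early neuron genes 8 were higher and 7 lower (median -0.05), and 16 and 2 with library totals, and lot 1 alone called 5. Under TMM these were 18.2% and 15.9%, both under the shares over all genes. Tubb3, a tubulin of neurons, had 160 and 115 CPM against 85.4, 93.8, 71.3 and 68.2 (0.78 ± 0.11), and Elavl3 40.1 and 33.8 CPM against 22.2, 15.1, 7.1 and 6.24 (1.74 ± 0.30). The proneural factor Neurod4 had 10.7 and 5.87 CPM against 33.6, 34, 15.4 and 14.6 (-1.52 ± 0.16).

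Of 21 tested erythroid genes, markers of red cells, 9 were lower and 2 higher (median -0.76). These were 42.9% and 9.52%, beside 27.2% and 27% over all genes. Of the 7 in the highest of 5 groups by level, described above, 4 were lower. The summed level of the list was 3508 CPM in Skp1acont and 6861 in Skp1acont PI against 8765 to 21689 in wt. The globin gene Hbb-bs had 6.69 and 10.3 CPM against 51.1, 43.7, 22.5 and 29.5 (-2.03 ± 0.35, adjusted p = 0.00396), though reads of near-identical globin genes may be split by the counting. Car2, the carbonic anhydrase, had 28.9 and 32.8 CPM against 93.5, 107, 108 and 129 (-1.83 ± 0.15, adjusted p = 0.0006). The 2 members that rose were Nfe2, with 10.3 and 16.8 CPM against 3.03, 1.83, 2.78 and 2.02 (2.56 ± 0.29, adjusted p = 0.00103), and Sptb (1.71 ± 0.40). The embryonic globin Hbb-bh1 lay lower in both Skp1acont libraries (648 and 1722 CPM against 2370 to 7332) but was not called (-1.74 ± 0.68, adjusted p = 0.0795). On the scale of library totals 5 erythroid genes were lower and 2 higher.

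Endothelial genes counted 6 higher and 4 lower of 23 tested, and 11 and 0 with library totals. The TMM shares, 26.1% and 17.4%, stood beside 27% and 27.2% over all genes. Plvap had 4.2 and 7.28 CPM against 1.01, 1.58, 2.47 and 2.5 (1.56 ± 0.28), and Fli1, an endothelial ETS factor, 10.9 and 10.1 CPM against 24.9, 19.4, 17 and 18.1 (-0.90 ± 0.18, and -0.45 with an adjusted p of 0.066 by library totals). The summed level of the list was 864 and 1103 CPM against 290 to 592, and most of it was Pecam1, with 571 and 909 CPM against 350 and 361 in wt lot 1 libraries and 82.6 and 99.4 in lot 2, which did not pass (1.71 ± 0.73, adjusted p = 0.107, and 2.17 with an adjusted p of 0.0413 by library totals). Kdr, the VEGF receptor that defines these cells, had 38.2 and 24.9 CPM against 25.9 to 34.5 (0.03 ± 0.13, adjusted p = 0.841), and it passed with library totals (0.49, adjusted p = 0.0265). Macrophage and platelet genes reached 104 and 109 CPM in sum against 60.5 to 177 in wt, with 4 of 15 higher and 2 lower. These were 26.7% and 13.3%, beside 27% and 27.2% over all genes, and the median was 0.74. Tyrobp, a myeloid adaptor, had 0.956 and 0 CPM against 6.72 and 5.12 in wt and 0.309 and 0.48 in wt PI, and C1qb had no count in either Skp1acont library. Laptm5 went the other way, with 2.29 and 2.23 CPM against 0.288 to 0.853 (1.95 ± 0.48, adjusted p = 0.0143). So did Itga2b, with 2.48 and 4.05 CPM against 0.617 to 1.34 (1.59 ± 0.41, adjusted p = 0.0176). All 4 higher and both lower members lay in the 2 lowest of 5 groups by level. Within lot 1 alone 1 gene of this list was called.

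Neural crest and head mesenchyme genes were 8 lower and 6 higher of 24 tested, and 3 and 8 with library totals. The TMM shares, 33.3% and 25%, stood beside 27.2% and 27% over all genes. Lum, a proteoglycan of connective tissue, had 16.4 and 21.2 CPM against 101, 102, 80.2 and 76 (-2.23 ± 0.20, adjusted p = 0.000693), and Col3a1, a fibrillar collagen, 94.8 and 114 CPM against 330, 289, 214 and 186 (-1.24 ± 0.23, adjusted p = 0.00508). Alx4, already given (2.03 ± 0.34), was higher. So was Pdgfrb, with 12.6 and 12.3 CPM against 4.37, 6.09, 7.1 and 5.86 (1.09 ± 0.21, adjusted p = 0.00618). Placenta genes were 5 higher and 1 lower of the 8 that passed, with Wnt4 at 16.1 and 15 CPM against 3.7, 4.02, 2.47 and 2.69 (2.27 ± 0.21) and Peg10 at 27.9 and 45.5 CPM against 4.03, 5.72, 15.7 and 25.2 (1.73 ± 0.33). Of the 6 heart and muscle genes that passed 4 were higher and 1 lower, led by the giant sarcomere gene Ttn with 17.8 and 15.8 CPM against 4.37, 4.14, 4.63 and 5.86 (1.80 ± 0.21) and by Myh7, with 5.35 and 5.46 CPM against 0, 0.731, 1.23 and 1.06 (2.73 ± 0.50). A gene as low in wt as Myh7 could pass the filter only through Skp1acont and then had to be higher, so the count over these genes shows no direction of the list. Of these, 5 placenta and 5 muscle genes lay in the 2 lowest groups by level, and with the background subtracted 1 of 3 muscle genes that passed was called. Surface ectoderm (1 higher and 1 lower of 11) and yolk sac (1 and 1 of 10) lists had few calls.

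Stress pathways gave mixed counts. Over all genes 27% were higher and 27.2% lower. The shares were 21.7% and 21.7% for p53 targets and 24% and 20% for the integrated stress response. They were 20% and 36% for cholesterol synthesis and 12.5% and 28.1% for glycolysis and hypoxia. Of 23 targets of p53, the factor that responds to DNA damage, 5 were higher and 5 lower: Tnfrsf10b, a death receptor, had 20.6 and 25.9 CPM against 5.38, 4.02, 9.87 and 7.11 (1.91 ± 0.22), Cdkn1a, the inhibitor p21, 20.6 and 12.1 CPM against 3.7, 5.6, 4.94 and 6.63 (1.57 ± 0.30), and Ccng1 20.6 and 27.3 CPM against 87.1, 83.9, 56.8 and 60 (-1.55 ± 0.23). Of 25 genes of the integrated stress response 6 were higher and 5 lower, with the cystine transporter gene Slc7a11 at 1.44 ± 0.19 and the folding chaperone gene Hspa5 at -0.71 ± 0.14. Hspa5 missed the threshold with library totals (-0.26, adjusted p = 0.165). Of 25 genes of cholesterol synthesis 9 were lower, among them Hmgcs1 with 276 and 185 CPM against 621, 714, 361 and 382 (-1.14 ± 0.14), and 5 higher, among them Dhcr7, of the last step (0.94 ± 0.15). With library totals 4 were lower and 10 higher, and lot 1 alone called 3. Of 32 genes of glycolysis and the hypoxia response 4 were higher and 9 lower, 11 and 2 with totals, and their median was 0.01.

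Imprinted genes and genes of DNA methylation included several with tight values. Igf2, the paternally expressed growth factor, had 90.4 and 71.6 CPM against 45.4, 47.9, 36.1 and 35.1 (0.98 ± 0.11, adjusted p = 0.00114), while 8 of the 20 imprinted genes tested were lower and only Peg10 was higher beside it. Of 15 DNA methylation genes tested 2 were higher and 3 lower (13.3% and 20%, beside 27% and 27.2% over all genes), and 9 and 0 with library totals. The 2 higher were Mbd3 and Tet2. Mbd3, a subunit of the NuRD complex, had 66.3 and 67.6 CPM against 27.9, 32.8, 30.9 and 30.2 (1.13 ± 0.13, adjusted p = 0.00102), and the dioxygenase gene Tet2 26.9 and 28.3 CPM against 15.8, 10.5, 12.3 and 11.8 (1.16 ± 0.19, adjusted p = 0.00312). Hells and Tet1 went the other way, at -0.69 to -0.60 and -0.70 to -0.57 when single libraries were left out. On the Y chromosome Eif2s3y (17.4 and 22.1 CPM against 73.6, 76.6, 45 and 91) and Ddx3y (17.2 and 19.6 CPM against 90.8, 94, 31.5 and 73.9) had log2 fold changes of -1.87 ± 0.31 and -1.92 ± 0.41. Neither was called without the Skp1acont library (adjusted p = 0.105 for Eif2s3y and 0.205 for Ddx3y) or without the Skp1acont PI library (0.0752 and 0.104). Kdm5d, on the same chromosome, was at 45.3 and 44.1 CPM against 25.6 to 52.8 (0.18 ± 0.21, adjusted p = 0.492, and 0.63 with an adjusted p of 0.0392 by library totals), so the Y-linked genes did not move together.

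The genes that rose most, by size among well-expressed named genes with no overlap between groups, were led by Klkb1, Xdh, Klf10, Sass6 and Rorb. Xdh, xanthine dehydrogenase of purine breakdown, had 50.3 and 58.3 CPM against 5.04, 3.53, 6.79 and 4.13 (3.57 ± 0.21, adjusted p = 0.000567). Sass6, a centriole protein gene, had 285 and 469 CPM against 45.1, 34.3, 35.5 and 32.4 (3.35 ± 0.23), and Rorb, a nuclear receptor of the nervous system, 58.1 and 87.2 CPM against 8.07, 7.19, 6.17 and 8.64 (3.24 ± 0.19). Tmem72 (2.77 ± 0.17), Psg16 (2.29 ± 0.14) and Hexdc (2.20 ± 0.14) likewise differed little within a group, and adjusted p was 0.000567 for each of these 6. The remaining 6 depended on the lot in wt. Klf10, a zinc finger factor of the TGF-beta response, had 3042 and 3844 CPM in Skp1acont, 619 and 513 in the wt lot 1 libraries and 85 and 69.2 in lot 2 (3.44 ± 1.06, adjusted p = 0.0475). Klkb1, plasma prekallikrein, had 78.4 and 125 CPM against 19.5 and 13.3 in lot 1 and 2.07 and 3.74 in lot 2 (3.59 ± 0.88, adjusted p = 0.0234). Il23a (3.16 ± 0.76), Rbm45 (2.89 ± 0.54), Galntl6 (2.86 ± 0.63) and Ccdc184 (2.36 ± 0.59) had the same order. Among the libraries labelled lot 1 all 12 were still higher, Klf10 by 2.63 (edgeR adjusted p = 0.000238) and Klkb1 by 2.64 (adjusted p = 8.41e-05). Whether lot 1 means the same batch in both groups is not given by the labels. The 6 genes that differed by lot in wt lost their call with all lots when either Skp1acont library was left out. Klf10 was also not called with DESeq2 size factors.

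The genes that fell most included several at or near 0 in Skp1acont. H3f3c, annotated as a processed pseudogene of histone H3.3 (chromosome 2, 119665626 to 119666036), had no count in either Skp1acont library and 44.7, 65.4, 89.2 and 78.8 CPM in wt, at least 243-fold lower against the limit of 3 counts over the Skp1acont group. Its reads can be shared with near-identical copies, so the value is uncertain. Prl8a2, a prolactin family gene of the decidua, also had no count in Skp1acont, with 162 and 28.7 CPM in wt and 1.85 and 0.672 in wt PI, so that nearly all of its counts came from 2 libraries. Sacm1l, a phosphoinositide phosphatase, had 1.72 and 0.607 CPM against 22.2, 47.4, 38.3 and 48.3 (-5.04 ± 0.53, adjusted p = 0.000916). Pdcd10, a gene of cerebral cavernous malformations, had 44.5 and 39.7 CPM against 277, 314, 260 and 257 (-2.72 ± 0.14), and C1d, a cofactor of the RNA exosome, 109 and 89.8 CPM against 644, 719, 549 and 528 (-2.61 ± 0.14). Gng10, a G protein gamma subunit, had 15.3 and 16.2 CPM against 97.8, 113, 95.3 and 90.7 (-2.65 ± 0.15). In Pdcd10, C1d and Gng10 the 4 wt values lay close together and far above both Skp1acont values. C1galt1c1 (-2.74 ± 0.17), Chac2 (-2.72 ± 0.19), Snhg4 (-2.68 ± 0.28) and Ttc32 (-2.66 ± 0.38) were close behind. Zfp931 had 5.16 and 5.67 CPM against 59.5, 54.3, 35.8 and 31.4 (-3.01 ± 0.25). It is 1 of 27 tested genes in a stretch of zinc finger genes on chromosome 2, 175422300 to 178078476. Of these, 22 were lower and 1, Zfp972, higher, with a median of -2.40. The ends of the stretch were set by its outermost genes called lower by more than 3 on the log2 scale. Its counts therefore rest in part on the same calls and are no independent support. The last of the 12, Hbb-bt, had 3.25 and 4.05 CPM against 62.9 and 55.5 in wt and 9.26 and 9.41 in wt PI (-2.81 ± 0.66, adjusted p = 0.0145).

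**Figure D4:**
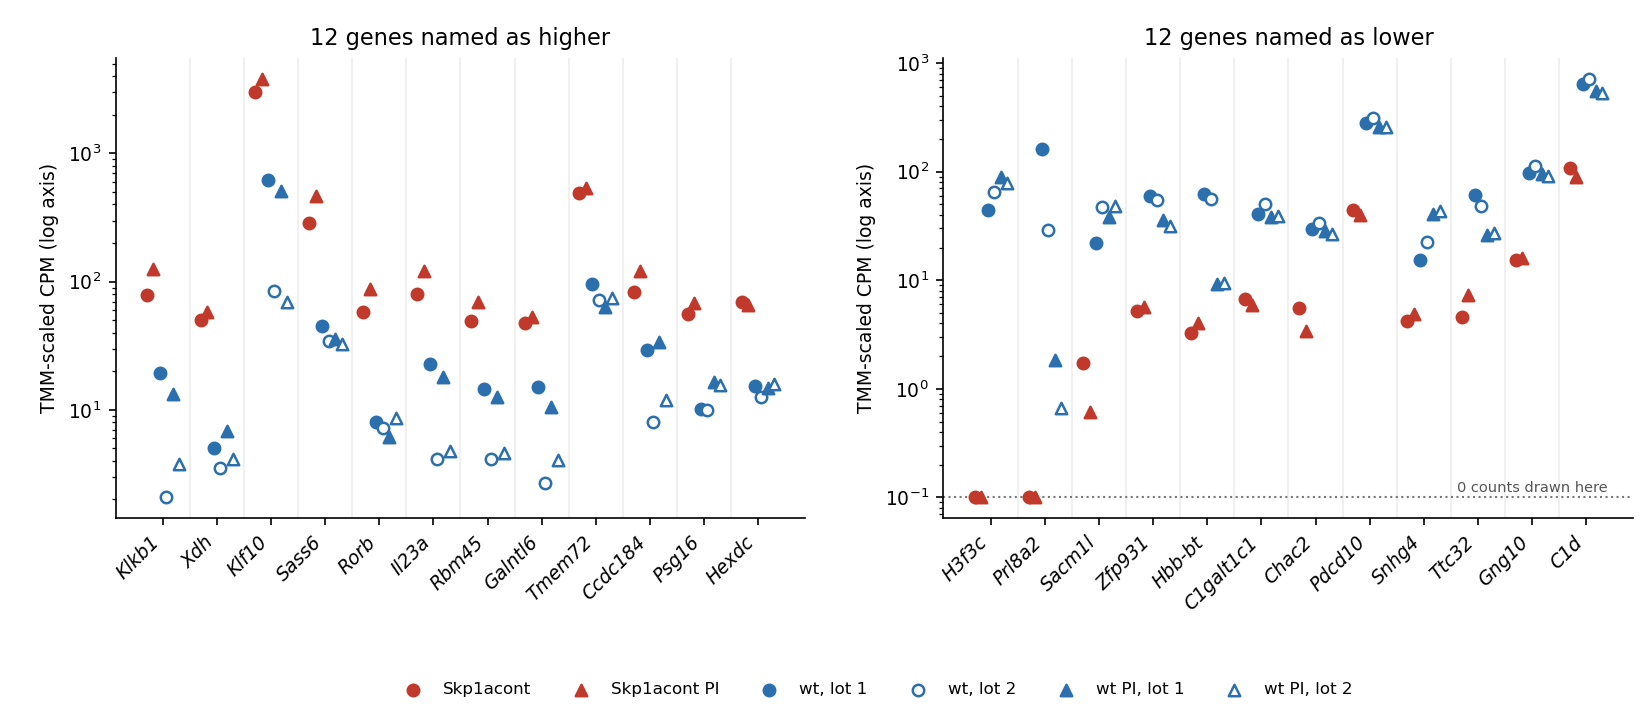
TMM-scaled CPM on a log axis of the 12 genes named as higher (left) and the 12 named as lower (right), 1 symbol per library (red Skp1acont, blue wt; circles without PI, triangles with PI; open symbols lot 2), with 0 counts drawn on the dotted line. In Klkb1, Klf10, Il23a, Rbm45, Galntl6 and Ccdc184 the wt lot 2 symbols lie well below those of lot 1, while Xdh, Sass6 and Rorb show no such split.

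The effect of the label was then set out within each PI state, where 1 Skp1acont library stands against 2 wt libraries and is assumed to vary like the others. Without PI 6733 genes (50.1%) were called, 22.9% higher and 27.2% lower, and with PI 7144 (53.1%), 23.6% higher and 29.5% lower. Of all genes 4702 were called in both states in the same direction and 129 in opposite directions. Skp1a differed by -1.62 without PI and -1.95 with it, Eed by -1.25 and -1.53, and Psma6 by -1.62 and -1.68, and for none of the 3 was the change between states called (adjusted p from 0.402 to 0.909). Spry2 (1.89 and 1.91) and Pdcd10 (-2.73 and -2.70) were almost the same in both.

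A difference between the PI states was called for 757 genes (5.63%), the effect being higher with PI in 229 (1.7%) and lower in 528 (3.93%). Among them the median size of the PI effect was 0.878 (log2) in wt and 0.371 in Skp1acont, against 0.361 and 0.251 over all genes. The 757 genes were selected by a difference in that effect, so unequal values among them are built in and no support. The Skp1acont value rests on 1 library in each PI state. Lin28a, the RNA-binding inhibitor of let-7, had 13.8 and 15.7 CPM in wt and 67 and 68.2 in wt PI, but 58.5 and 85.2 in Skp1acont without and with PI (-1.64 ± 0.20, adjusted p = 0.0258). Nhlh2, a factor of young neurons, had 67.6 and 53.4 CPM in wt and 8.64 in each wt PI library, but 18.9 and 21.9 in Skp1acont, with an effect of -1.66 without PI and 1.34 with it (adjusted p of the difference = 0.0206). The membrane carbonic anhydrase Car4 had 6.72 and 9.14 CPM in wt and 78.7 and 94.2 in wt PI, against 33.6 and 43.5 (-3.03 ± 0.28). In all 3 the Skp1acont values differed less between the PI states than the wt values did, and they lay apart from at least 1 of the wt pairs. Those of Lin28a lay on either side of the wt PI pair. Among the lists with calls in 1 direction only, the effect was higher with PI in 10 of 44 early neuron and 6 of 21 erythroid genes. The same held for 6 of 13 genes of the mitochondrial genome. It was lower in 10 of 32 glycolysis and hypoxia, 8 of 49 cell cycle and 7 of 37 proteasome genes. It was also lower in 6 of 25 genes of the integrated stress response and 5 of 18 SCF genes. The count of 757 genes was unstable. It was 194 by DESeq2 and 0 by the legacy quasi-likelihood method of edgeR (3238 genes at an unadjusted p under 0.05, and 3452 with the method used here), and 1 when either wt PI library was left out.

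**Figure D5:**
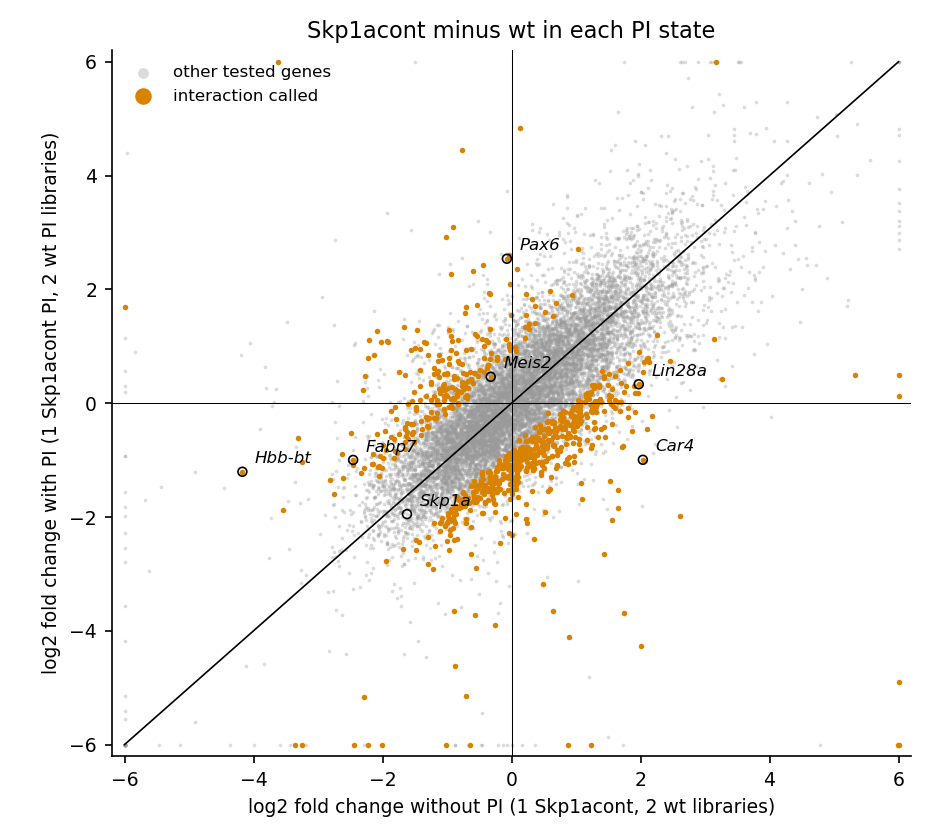
Log2 fold change of Skp1acont against wt with PI (vertical) against that without PI (horizontal) for each tested gene, drawn at ±6 where larger, with the line of equal effects. Orange marks the 757 genes whose effect differed between PI states; Skp1a lies near the line, while Car4 and Lin28a lie below it and Meis2, Fabp7 and Hbb-bt above.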

How the data were processed

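The deposited table holds whole-number read counts per gene for 36255 genes, as the authors made it from poly(A)-selected libraries. GRCm38 (mm10) and Trim Galore 0.6.7 are named per the submitters' processing notes, and which aligner and counter were run, and whether by strand, is not given in the sources used here. Reads of near-identical genes, pseudogenes and overlapping genes may therefore be split or joined. From these counts genes with enough reads were kept (filterByExpr) and scaled by TMM. They were then tested with edgeR 4.0.16 (glmQLFit, robust, and glmQLFTest, in R 4.3.3) in a model of PI and label over the 6 libraries, with Benjamini-Hochberg adjustment over all 13444 genes and a threshold of 0.05. A further fit held the product of PI and label. Gene positions, biotypes, length and GC content came from GENCODE M21, which matched 98.3% of the tested genes. The method was tested on simulated data.

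Genes were named by a rule: Skp1a, Ezh2, Eed, Suz12 and Meis2, the 12 largest changes in each direction among called genes with symbols, no overlap of groups and a mean of at least 20 CPM, and up to 4 members of each list by the smallest p. Further members and the genes shown for PI were chosen after their values were seen. The members and the 38 gene lists were chosen with earlier results of these data known, so they are no independent support. Alternatives were DESeq2 1.42.0, its size factors, library totals, other filters, the legacy quasi-likelihood method, a replicate block, lot 1 alone, other sets of libraries, background subtraction and leaving out each library. The replicate numbers were not shown to pair Skp1acont with wt, since only wt has both lots. Counting limits cover counting error only. Results of some genes that the rule names are not reported here.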

Additional observations from a re-analysis of the deposited data

Results flagged for a closer look

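The difference between Skp1acont and wt itself differed between the PI states, by the test of that difference with edgeR, in 757 genes, each state holding 1 Skp1acont library. Of the genes named by rule, the difference (log2, with PI minus without) was 2.97 for Hbb-bt (adjusted p = 0.0218) and 1.46 for Hbb-bs (adjusted p = 0.048), 2 globin genes. Both were lower in Skp1acont in either state, Hbb-bt at -4.17 without PI and -1.20 with it, and Hbb-bs at -2.81 and -1.36. The difference was 1.67 for Ttc32 (adjusted p = 0.0385), 1.46 for Fabp7 (adjusted p = 0.0258), 1.06 for Zic1 (adjusted p = 0.0362) and 0.95 for Ccng1 (adjusted p = 0.0402), all of them less reduced with PI. Pax6, the eye and forebrain regulator, had 7.64 CPM in Skp1acont and 21.6 in Skp1acont PI against 6.05, 9.26, 4.63 and 3.26 in wt, and its difference was 2.61 (adjusted p = 0.0342). For the immediate early gene Jund it was 1.37 (adjusted p = 0.0455), for mt-Nd4 0.88 (adjusted p = 0.0456) and for Meis2 0.79 (adjusted p = 0.0456). Sp8 went the other way, with -0.89 (adjusted p = 0.0473). When either wt PI library was left out, 1 gene in all was past the threshold.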

How the results depend on the processing

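The count of 7278 genes with a Skp1acont effect ranged from 5337 to 7342 when single libraries were left out and was 3868 within lot 1 alone, where fewer libraries entered. With the replicate block it was 5092, of which 4939 were among the 7278. The count of 757 genes with a different effect between PI states was 194 by DESeq2, 0 by the legacy quasi-likelihood method and 2654 with the replicate block, and ran from 1 to 2727 when single wt libraries were left out; the block and these omissions were chosen after seeing the data, and the cause was not tested. The sign turned under some alternative for 4 of the genes named by rule, of which Spink1 alone was called with all 6 libraries: Spink1, at -1.32, was at 0.015 when all 11 libraries were fitted together, and Meis2, at 0.09, was at -0.35 (adjusted p = 0.0458, edgeR) without the Skp1acont PI library and at 0.41 without the other Skp1acont library. Lhx2, at -0.39, ran from -2.77 to 2.81 and Pax6, at 1.34, from -0.09 to 2.48 when single libraries were left out, and Lhx2 was at 0.07 with library totals and 0.51 by DESeq2. With library totals 12 of the genes named by rule lost their call, among them Ezh2, Hspa5, Fli1, Zic5, Gli3 and Spink1. Depth limits the low genes most: in the Skp1acont libraries levels under 0.573 and 0.607 CPM cannot be told from no count.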

Other observations

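Some of the largest gaps lay in genes outside the rule for named genes, and these were chosen after their values were seen. Rpl10-ps3, annotated as protein coding, had 360 and 492 CPM in the Skp1acont libraries and no count in any wt library, while Rpl36a-ps2, annotated as a processed pseudogene, had no count in Skp1acont and 364, 186, 204 and 183 CPM in wt. By their symbols both are copies of ribosomal protein genes, so their reads are uncertain. Of the 41 genes called lower by more than 3 on the log2 scale 38 had a gene model, and 19 of these were processed pseudogenes and 16 protein coding. Of the 144 called higher by as much 136 had a model, 27 of them processed pseudogenes and 98 protein coding. Over all 13219 tested genes with a model 378 were processed pseudogenes.

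Gm29013 had 5602 and 12493 CPM in Skp1acont against 278, 143, 476 and 286 in wt. Dock10, a guanine nucleotide exchange factor gene, held 36032 and 49250 CPM in Skp1acont, 25315 and 21018 in the wt lot 1 libraries and 5974 and 6176 in lot 2. Its groups did not overlap, but the difference was not called (1.54 ± 0.71, edgeR adjusted p = 0.122).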
